A study of Mus musculus with 23 samples.

Results

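The 10 genes described here take part in cholesterol efflux and in the lipid-laden macrophage, the foam cell: Abca1, Abcg1, Abca3, Apoe, Nr1h3, Mylip, Lpl, Plin2, Fabp4 and Trem2. They were chosen by gene symbol, with results of these data already known, from 18194 genes that the array annotation names. They are read by 20 probe sets, all of which passed the filter on low signal, out of 34958 probe sets with 1 gene symbol. Because the choice used their levels across the groups, their differences are given below as a description and no p-value is given for them. How many of them the fit over all genes called is printed beside the share of all genes called, and since the choice used all 8 groups, nothing is read from such a count in any comparison.

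The samples were medulloblastomas, tumours of the cerebellum, derived from Ptch+/-HIC+/- transgenic mice and grown under the skin of nude mice, which lack a working thymus but keep macrophages. Every group shares that genotype and that host. The mice received vehicle or NVP-LDE225, which blocks Smoothened, the signal transducer of the Hedgehog pathway. Vehicle tumours with no stated time gave 3 arrays and vehicle tumours at 4 h gave 2. Tumours whose status is labelled sensitive were taken at 4, 8, 24 and 48 h after drug at 40 mg/kg, with 3 arrays at each time, and the tumours labelled resistant had been dosed at 40 mg/kg (3 arrays) or 160 mg/kg (3 arrays) for a time that is not given. On 6 of the 12 arrays of the short treatments another label says resistant, and the grouping follows the description. The labels name neither the animal behind each array nor any pooling, so every p-value measures only the spread between these samples.

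Cells that take up more cholesterol than they need convert part of it to oxysterols, which activate the liver X receptors (LXR). LXR pairs with the retinoid X receptor (RXR) and raises transcription of the transporters and apolipoproteins that carry cholesterol out of the cell, and of Mylip, which leads lipoprotein receptors to degradation. Macrophages that engulf lipid or dead cells store the surplus in droplets coated by Plin2. In brain, lipid-handling microglia are known for Trem2 and Apoe.

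Values are MAS5 signals, the linear brightness that the authors had scaled to a trimmed mean of 150 on each array. Differences are log2 of signal plus 16, with the standard error (SE) of a limma fit over all 23 arrays. A gene is called when its Benjamini-Hochberg adjusted p in that fit is under 0.05, and each gene is read by its probe set of highest mean signal unless stated. Signals of different probe sets are not set against each other. Median signal per array ranged from 33.9 to 46.7. RNA integrity was read from actin, as the log2 signal of its 3' control over that of its 5' control, and this was 1.00 to 1.08 on the vehicle arrays, 1.41 to 1.83 at 24 h and 0.84 to 0.96 at 48 h. The vehicle, 48 h and resistant arrays and 2 of the 24 h arrays carry consecutive numbers in their titles, here called a run. The remaining 24 h array, replicate 1, falls in another run with the 4 h and 8 h drug arrays and 1 of the 4 h vehicle arrays. The other 4 h vehicle array, replicate 1, stands apart from both runs. What the numbers stand for is not stated. In whole tumours, fewer cells of a type and less RNA per cell cannot be told apart.

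At 48 h all 10 genes were higher than in vehicle tumours, and for each gene every 48 h array lay above every vehicle array. Their median log2 difference was 3.08, with a range of 1.40 to 4.60, against a median of 0.06 over the 14980 genes tested. All 10 were called higher at 48 h, where 25.1% of all genes were called higher and 30.4% had every 48 h array above every vehicle array. The plot of signal on each array shows the 3 arrays at 48 h at the top for 8 of the genes. For Nr1h3 they overlap the 24 h arrays, and for Fabp4 the highest array is a resistant one.

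**Figure D1:**
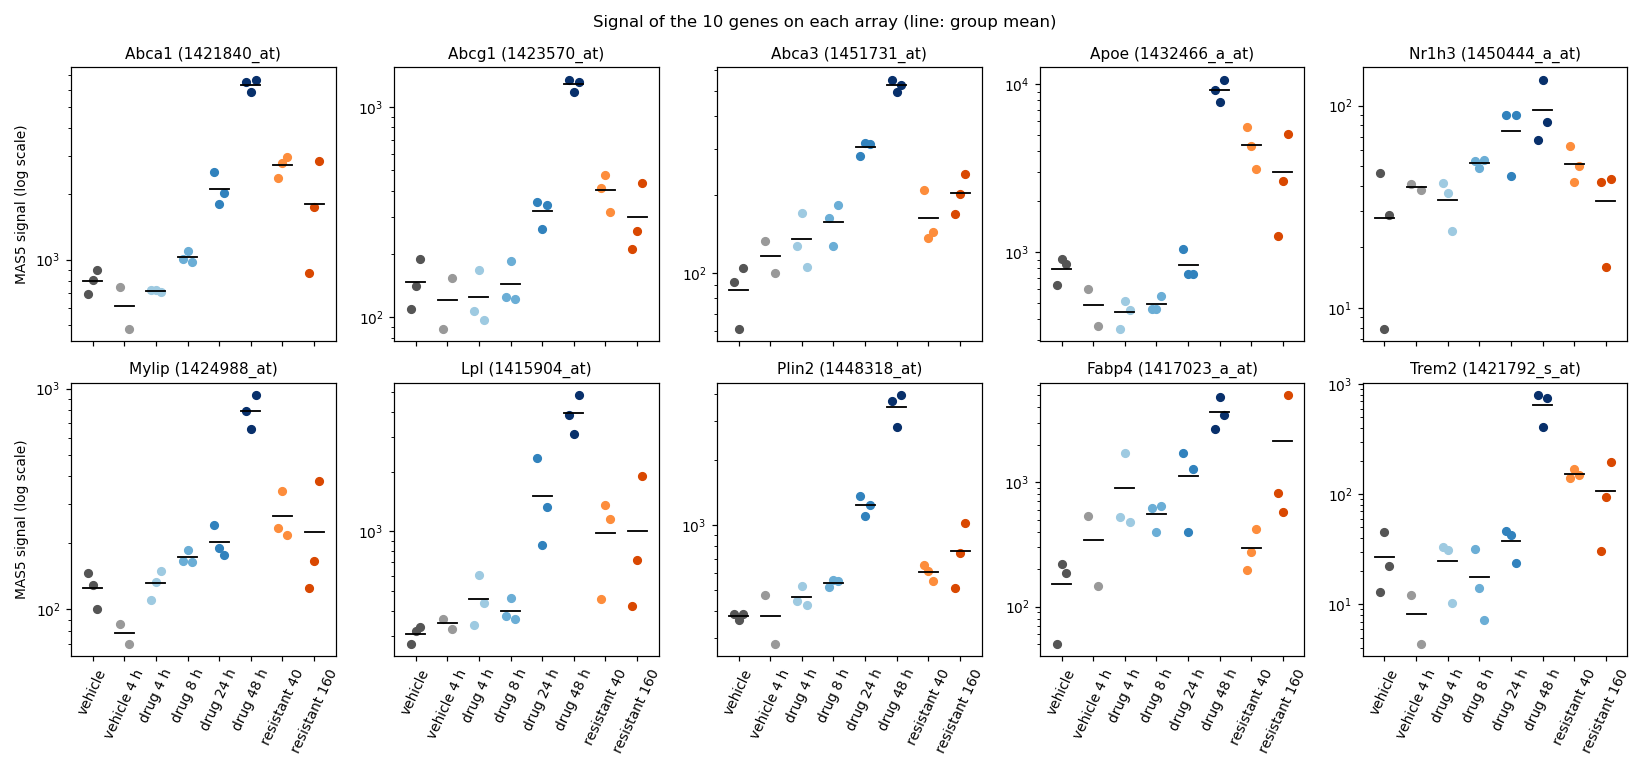
MAS5 signal (log axis) of the 10 genes on each of the 23 arrays, by group; each point is an array and each line a group mean, and probe set names stand in the panel titles. The Apoe and Trem2 arrays overlap vehicle at 24 h and lie above it at 48 h, whereas those of Plin2 and Abca3 lie above it at both times.

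Abca1 moves cholesterol and phospholipid from the cell membrane to lipid-poor apolipoproteins. Its signals were 697, 810 and 894 on the vehicle arrays, 2535, 1795 and 2018 at 24 h, and 6503, 5867 and 6675 at 48 h. In tumours resistant at 40 mg/kg they were 2363, 2777 and 2968, and at 160 mg/kg they were 867, 1734 and 2823. The 48 h arrays were the highest of the 23, and the lowest array at 160 mg/kg lay inside the vehicle range. The log2 difference from vehicle was 2.97 (SE 0.24), or 7.93-fold in mean signal, at 48 h. The 8 h arrays, at 975 to 1097, lay above both 4 h vehicle arrays, at 482 and 745, with a log2 difference of 0.76 (SE 0.27) that was not called. The other Abca1 probe sets differed by 3.18 and 2.38 on the log2 scale at 48 h.

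Abcg1 passes cholesterol on to high-density lipoprotein that already holds lipid. Its signals were 109, 142 and 190 in vehicle tumours and 1345, 1177 and 1321 at 48 h. The 24 h arrays, at 264 to 355, lay between these groups without overlap. The log2 difference was 3.02 (SE 0.24) at 48 h and 1.06 (SE 0.24) at 24 h. Its second probe set differed by 2.71 at 48 h.

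Abca3 carries phospholipid into lamellar bodies and is best known from lung. Its signals were 92.9, 61.3 and 105 in vehicle tumours, 282, 317 and 312 at 24 h and 551, 497 and 526 at 48 h. Replicates at 24 h and 48 h lay close together and the 3 groups did not overlap. The log2 difference was 1.67 (SE 0.19) at 24 h and 2.42 (SE 0.19) at 48 h. Its other probe sets differed by 1.75 and 1.04 at 48 h. The probe set that gave 1.04 had low signals, with means of 10.3 in vehicle tumours, 38.7 at 24 h and 36.9 at 48 h. Its mean on the 4 h vehicle arrays was 29.8, so that difference depends on the vehicle group.

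Apoe encodes the apolipoprotein that accepts cholesterol and is bound by lipoprotein receptors. Its signals were 640, 906 and 846 in vehicle tumours, 1040, 736 and 735 at 24 h and 9197, 7866 and 10591 at 48 h. In tumours resistant at 40 mg/kg they were 5587, 4272 and 3142, and at 160 mg/kg 1251, 2658 and 5063. The 24 h arrays overlapped vehicle, whereas every 48 h array and every resistant array lay above it. The 4 h vehicle arrays, at 606 and 364, and the 8 h arrays, at 458 to 550, lay below every 24 h array. The reading at 24 h thus depends on the vehicle group. The log2 difference was 0.07 (SE 0.31) at 24 h and 3.51 (SE 0.31) at 48 h.

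Nr1h3 encodes LXR alpha itself, and its signals were low. They were 46.6, 7.9 and 28.8 in vehicle tumours, 89.5, 45.0 and 89.3 at 24 h and 67.7, 134 and 82.8 at 48 h. The 48 h arrays lay above the vehicle arrays but overlapped the 24 h arrays. Its log2 difference of 1.40 (SE 0.31) at 48 h was the smallest of the 10 genes and depended on the offset, at 1.98 with an offset of 1 and 0.79 with an offset of 64.

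Mylip encodes the ubiquitin ligase also called IDOL. Its signals were 147, 129 and 100 in vehicle tumours, 242, 189 and 177 at 24 h and 790, 658 and 935 at 48 h. Each step lay above the one before without overlap, with a log2 difference of 0.63 (SE 0.25) at 24 h that was not called and of 2.52 (SE 0.25) at 48 h. Its 4 h signals of 110, 134 and 150 and 8 h signals of 166, 187 and 164 all exceeded the 4 h vehicle signals of 86.2 and 70.0. Every array lay above both of these controls for 14.1% of all genes at 4 h and 21.6% at 8 h. The 4 h vehicle arrays lay below the other vehicle arrays, and the 4 h drug arrays overlapped the latter.

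LXR binds direct repeats spaced by 4 bases (DR4). Promoter windows from RefSeq (mouse build GRCm38.p6, 250 bases before to 50 bases after a transcription start) were matched for 7 of the 10 genes, in 10 windows; Abcg1, Lpl and Fabp4 had no entry. The 250 bases before the start of Abca1 (chr4:53159896-53160145, minus strand) and of Mylip (chr13:45389492-45389741, plus strand) are printed because these genes are known LXR targets whose 8 h arrays all lay above both 4 h vehicle arrays. Capitals mark, in order, an E-box (CACGTG), a DR4-like run and a TATA box (TATAAA) in Abca1, and a TATA box in Mylip.
Abca1: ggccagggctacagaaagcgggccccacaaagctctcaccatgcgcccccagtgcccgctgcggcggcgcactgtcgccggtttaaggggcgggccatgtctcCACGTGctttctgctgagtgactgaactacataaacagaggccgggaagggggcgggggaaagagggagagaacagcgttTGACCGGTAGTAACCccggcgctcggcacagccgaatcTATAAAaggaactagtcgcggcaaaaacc
Mylip: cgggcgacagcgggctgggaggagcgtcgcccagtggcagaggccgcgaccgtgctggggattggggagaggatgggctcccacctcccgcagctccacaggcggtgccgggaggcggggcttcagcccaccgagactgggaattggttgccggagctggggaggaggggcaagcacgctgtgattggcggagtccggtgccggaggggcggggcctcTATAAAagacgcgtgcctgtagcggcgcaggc
The DR4 consensus, AGGTCA repeated after 4 bases and searched on both strands, occurs in 0.0152% of 32817 windows, and a looser form that includes it, AGGTNA followed after 4 bases by NGGTCA, in 0.0884%. Neither occurs in the 10 windows, nor does AGGNCA repeated after 1 base, the kind of repeat that PPAR factors bind (0.381% of windows), nor GTCACGTG, an E-box form of lysosomal genes (2.24%). The run in Abca1 reads on the other strand as GGTTA followed after 4 bases by CGGTCA, letters chosen after the window was read, and 4 of the 32817 windows hold them. The E-box letters, which GTCACGTG contains, occur in 2 of the 10 windows against 7.15% of all, and the TATA letters in 3 against 13.6%. These matches describe letters and not binding.

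Lpl encodes lipoprotein lipase, which frees fatty acids from lipoproteins. Its signals were 273, 318 and 330 in vehicle tumours, 2338, 851 and 1330 at 24 h and 3833, 3084 and 4851 at 48 h. The 24 h arrays were spread widely but did not overlap either neighbour. The log2 difference was 2.12 (SE 0.40) at 24 h and 3.59 (SE 0.40) at 48 h, and the second probe set differed by 3.71 at 48 h. Skeletal muscle, which also makes this lipase, showed in its markers: their summed signal was 112 to 7029 in vehicle tumours, 5491 to 8099 at 24 h and 194 to 8788 at 48 h. Over the 23 arrays r of log2 Lpl signal with that sum was 0.10, and it was 0.92 with a fibroblast marker sum; their part in the result was not tested.

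Plin2 coats lipid droplets. Its signals were 387, 364 and 387 in vehicle tumours, 1363, 1096 and 1241 at 24 h and 3743, 2825 and 3969 at 48 h. The vehicle arrays were the closest together of any group for this gene, and the 3 groups did not overlap. The log2 difference was 1.66 (SE 0.18) at 24 h and 3.14 (SE 0.18) at 48 h. At 8 h its signals of 516, 557 and 554 lay above both 4 h vehicle arrays, at 478 and 284, with a difference of 0.54 (SE 0.20) that was not called.

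Fabp4 encodes a fatty acid carrier of adipocytes, macrophages and capillary endothelium, and it varied most within groups. Its signals were 50.4, 218 and 185 in vehicle tumours, 535 and 147 at 4 h of vehicle and 520, 1696 and 477 at 4 h of drug. They were 1696, 396 and 1275 at 24 h and 2670, 4816 and 3430 at 48 h. The 24 h and 48 h arrays lay above the vehicle arrays, whereas the arrays of drug and vehicle at 4 h overlapped. The log2 difference of 4.60 (SE 0.65) at 48 h was the highest of the 10 and also the least precise. Its other probe sets differed by 3.76, 1.91 and 1.40 at 48 h, the last with overlapping arrays.

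Trem2 encodes a lipid-sensing receptor of macrophages and microglia. Its signals were 13.0, 45.2 and 22.4 in vehicle tumours, 46.6, 42.3 and 23.8 at 24 h and 796, 409 and 743 at 48 h. Apart from the 48 h arrays and the resistant arrays, no signal was above 46.6. The log2 difference at 48 h was 3.97 (SE 0.41), and 4.66 or 2.94 with offsets of 1 or 64. The second Trem2 probe set did not follow it: its signal was between 4.4 and 55.7 on all arrays and its 48 h difference was -0.24 (SE 0.40). The first, by its suffix, is of a type whose probes can match several transcripts, so the Trem2 values are uncertain.

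The genes differed in when they reached their 48 h level. At 4 h of drug the median log2 difference from the 4 h vehicle arrays was 0.29 (0.01 over all genes), 0 of 10 genes were called higher by limma against 0.0868% of all genes (1 at an unadjusted p under 0.05), and only the Mylip arrays were all above, against 14.1%. At 8 h the median was 0.41 (0.04 over all genes). Mylip was the 1 gene called higher (2.12% of all genes), with a log2 difference of 1.00 (SE 0.28), and Abca1, Nr1h3, Mylip and Plin2 had every array above both controls (21.6%). Each comparison at 4 h and 8 h uses the same 2 vehicle arrays, and the medians moved with them: without replicate 1 of the 4 h vehicle they were 0.50 at 4 h and 0.61 at 8 h, and without replicate 2 they were 0.14 and 0.20. The Mylip call at 8 h was lost when any of the 5 arrays was left out. It was also lost with an offset of 64, no filter, quantile normalization, no eBayes trend, or the run as a block.

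At 24 h the median was 1.25 (0.10 over all genes) and 7 of 10 genes were called higher, against 19.7% of all genes, a count from which nothing is read. Apoe, Mylip and Trem2 were not called. The 24 h and 48 h comparisons share their vehicle arrays, those with no stated time, and their values are set side by side here. For Apoe the log2 difference of the 4 h vehicle from those arrays was -0.728, which the shares below leave out. The 24 h difference was 1.85% of the 48 h difference for Apoe, 9.17% for Trem2, 25.1% for Mylip and 35.2% for Abcg1. It was 46.4% for Abca1, 52.6% for Plin2, 59.1% for Lpl, 59.3% for Fabp4, 68.7% for Abca3 and 79.3% for Nr1h3. Mean signal at 48 h was 17.3 times that at 24 h for Trem2 and 11.0 times for Apoe, against 1.73 times for Abca3 and 1.27 times for Nr1h3. Among the 24 h arrays, replicate 1 was the highest for 9 of the 10 genes. Its log2 actin ratio of 1.83 was the highest of the 23 arrays. Leaving out each 24 h or vehicle array in turn gave a 24 h median of 1.114 to 1.432.

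**Figure D2:**
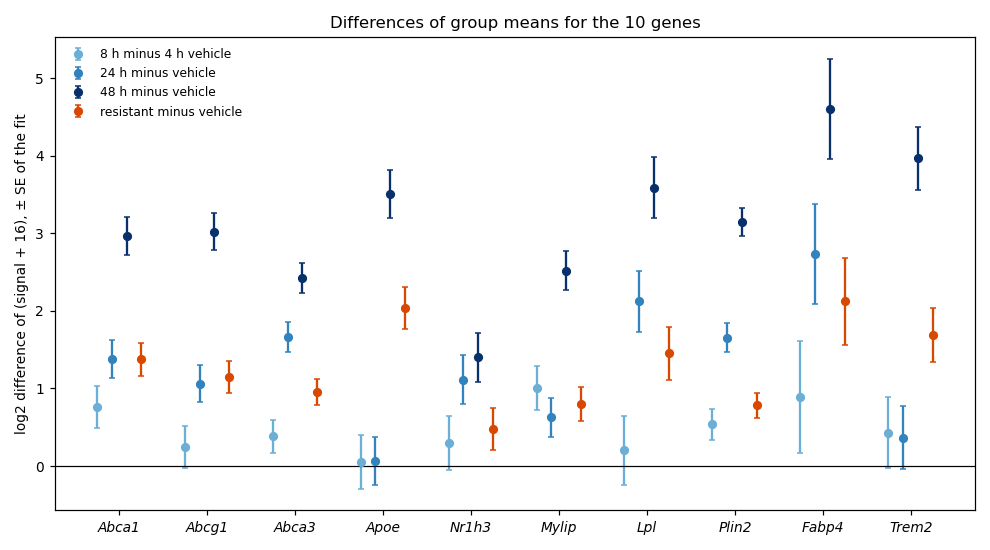
Log2 difference of signal plus 16 (vertical axis) for each of the 10 genes (horizontal axis) at 8 h, 24 h and 48 h of drug and in resistant tumours, with the SE of the limma fit as bars; the 8 h arrays are set against the 4 h vehicle and the rest against the vehicle with no stated time. Every gene has its highest difference at 48 h, and Apoe is near 0 at 24 h.

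In resistant tumours, both doses weighted equally, the median log2 difference from vehicle was 1.26 (0.01 over all genes). All genes but Nr1h3 were called higher, 9 of 10 against 4.15% of all genes, and 5 of 10 had every resistant array above every vehicle array, against 3.89%. Apoe was 2.04 higher (SE 0.27), Lpl 1.45 (SE 0.34), Abca1 1.37 (SE 0.21) and Plin2 0.78 (SE 0.16). The count of calls fell to 5 without vehicle replicate 1 and to 4 with only the compared arrays in the fit.

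At 40 mg/kg, all 10 genes were lower in resistant tumours than in sensitive tumours at 48 h, and no array overlapped, where 24.2% of all genes had every resistant array below. The median log2 difference was -1.64 (-0.04 over all genes), and 9 of 10 genes were called lower against 19.2% of all genes, Nr1h3 being the exception; the choice of genes used these groups too, and nothing is read from the counts. Apoe differed by -1.12 (SE 0.31), Abca1 by -1.23 (SE 0.24), Plin2 by -2.50 (SE 0.18) and Fabp4 by -3.57 (SE 0.65). As a share of the 48 h difference from the same vehicle arrays, tumours resistant at 40 mg/kg stood at 68.2% for Apoe and 58.5% for Abca1 but at 20.6% for Plin2 and 22.4% for Fabp4. The time from the last dose is not stated for the resistant tumours, so dose history and time cannot be told apart.

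Between the resistant doses 0 of 10 genes were called higher (1.68% of all genes) or lower (1.12%), and 3 passed an unadjusted p under 0.05 in the limma fit, with a median log2 difference of -0.39 at 160 mg/kg against 40 mg/kg. Only Fabp4 had all of its 160 mg/kg arrays, at 822, 575 and 4998, above the 40 mg/kg arrays, at 195, 274 and 420, where 5.97% of all genes did. At 160 mg/kg, replicate 3 was the highest array for all 10 genes and replicate 1 the lowest for 8 of them. Trem2 read 30.3, 95.1 and 197 on its 160 mg/kg arrays, and Lpl 421, 720 and 1890. Without replicate 3 the median was -0.70 and 3 genes were called lower, and without replicate 2 at this dose 1 gene was called higher.

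Other genes of lipid handling were taken from 10 lists, of whose 113 genes 97 were tested. The lists were written with results of these data known, so nothing is read from the counts of calls in them. The genes named from them were mostly picked by smallest adjusted p. At 48 h 41 of the 97 were called higher (25.1% of all genes) and 21 lower (21.3% of all genes), with a median log2 difference of 0.56. At 24 h 28 were called higher (19.7% of all genes) and 23 lower (14.4% of all genes), with a median of 0.28. At 8 h 0 were called higher (2.12% of all genes) and 5 lower by limma (2.48% of all genes), and 24 passed an unadjusted p under 0.05. In resistant tumours 15 were called higher (4.15% of all genes) and 4 lower (2.48% of all genes), with a median of 0.10.

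For genes that act with the 10 on uptake and cholesterol release, the 48 h values are given as a description. Over all genes the shares called at 48 h were 25.1% higher and 21.3% lower. Of 8 uptake and lipid-associated macrophage genes 6 rose and 0 fell, with a median of 3.72. Lgals3, a galectin, rose by 4.82 (SE 0.33, adjusted p = 5.1e-11), Gpnmb, a glycoprotein of lysosome-rich macrophages, by 4.41 (SE 0.31, adjusted p = 8.3e-11) and the scavenger receptor gene Msr1 by 3.28 (SE 0.23, adjusted p = 5.1e-11). Of 14 cholesterol handling genes 8 rose and 1 fell, with a median of 0.88. Lipa, the lysosomal acid lipase, rose by 3.10 (adjusted p = 1.8e-09), Nceh1, which frees stored cholesterol ester, by 2.05 (adjusted p = 3.5e-08) and Cyp27a1, which makes an oxysterol, by 3.29 (adjusted p = 6e-08). Of 11 other ABCA and ABCG transporters 6 rose, 0 fell and the median was 0.80; Abca8a rose by 2.50 (adjusted p = 6.4e-07), Abcg2 by 2.37 (adjusted p = 2.5e-06) and Abca7 by 1.71 (adjusted p = 4e-06).

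Genes of droplets and fatty acid binding gave 8 of 15 higher and 0 lower, with a median of 0.99. Fabp5, a fatty acid carrier, rose from a mean signal of 4790 to 11010, a log2 difference of 1.19 (adjusted p = 6.4e-09), Plin3, another droplet protein, by 2.62 (adjusted p = 8.1e-07) and Mgll, a monoglyceride lipase, by 1.42 (adjusted p = 3.2e-07). Among 4 partners of lipoprotein lipase only Angptl4, its secreted inhibitor, rose, by 2.79 (SE 0.50, adjusted p = 7.3e-05); 0 fell and the median was 0.36. Of 7 PPAR regulators 4 rose and 0 fell, with a median of 1.04. Cebpa rose by 2.31 (adjusted p = 2.3e-07), and Pparg, at mean signals of 10.3 and 39.4, by 1.04 (adjusted p = 0.015), a call lost with an offset of 1 (adjusted p = 0.06).

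The genes of the LXR pathway named here went in both directions at 48 h. Of 15 other LXR targets 8 rose and 2 fell at 48 h, with a median of 1.11. The sphingomyelinase-like gene Smpdl3a rose by 3.37 (SE 0.26, adjusted p = 3.6e-10) and Mertk, a receptor for dying cells, by 3.04 (SE 0.28, adjusted p = 5.5e-09). Srebf1, which drives fatty acid synthesis, fell by 2.32 (SE 0.19, adjusted p = 6.6e-10) from a mean signal of 2223 to 438, and the desaturase gene Scd2 fell by 0.95 (adjusted p = 3.6e-07). Of 5 receptors and cofactors 0 rose and 2 fell, with a median of -0.19. Rxra, the partner of LXR, fell by 1.24 at 48 h (SE 0.19, adjusted p = 1.2e-05) and by 2.25 at 24 h (adjusted p = 3e-09), and Rxrb fell by 0.64 at 48 h (adjusted p = 0.00045), a call lost with all 5 vehicle arrays as control (adjusted p = 0.056).

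Sterol synthesis genes and the receptor genes Lrp8 and Vldlr were lower. Both tested receptors that Mylip leads to degradation fell at 48 h, with a median of -2.80: Lrp8 fell by 3.65 (SE 0.28, adjusted p = 3e-10), from a mean signal of 569 to 32.9, and Vldlr fell by 1.94 (SE 0.34, adjusted p = 6.6e-05). Mylip acts on these proteins, whereas the arrays read transcripts. Lrp8 had already fallen at 8 h, by 1.29 (SE 0.31, adjusted p = 0.02). Of 16 sterol synthesis genes 0 rose and 14 fell at 48 h, with a median of -1.23. Idi1 fell by 3.42 (adjusted p = 6e-11) and Sqle by 2.12 (adjusted p = 1.7e-08). Insig1, a regulator in this list and not an enzyme, fell by 2.07 (adjusted p = 3.4e-10).

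In resistant tumours 7 of the 8 uptake genes were called higher by limma (4.15% of all genes) and 0 lower (2.48%), with a median of 1.75. They included Lgals3 at 2.44 (SE 0.29, adjusted p = 4.9e-05) and Gpnmb at 1.50 (SE 0.27, adjusted p = 0.0019). Sterol synthesis genes gave 3 of 16 lower and 0 higher, with a median of -0.39. Other LXR targets gave 3 of 15 higher and 0 lower, with Smpdl3a at 1.76 (SE 0.23, adjusted p = 9.7e-05) and Mertk at 1.38 (SE 0.24, adjusted p = 0.0015). Cholesterol handling gave 4 of 14 higher and 1 lower, and droplet genes 1 of 15 higher, Plin3 (adjusted p = 0.04). That Plin3 call was lost under most alternatives, with adjusted p = 0.053 under quantile normalization, 0.063 with no filter and 0.18 without vehicle replicate 3. The receptors, lipase partners, ABC transporters, PPAR regulators and receptors degraded through Mylip, 29 tested genes, had 0 called by limma and 5 at an unadjusted p under 0.05. With only the compared arrays in the fit, the calls of Lipa, Mertk, Lrp1 and Plin3 were lost (adjusted p = 0.093, 0.061, 0.088 and 0.074).

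**Figure D3:**
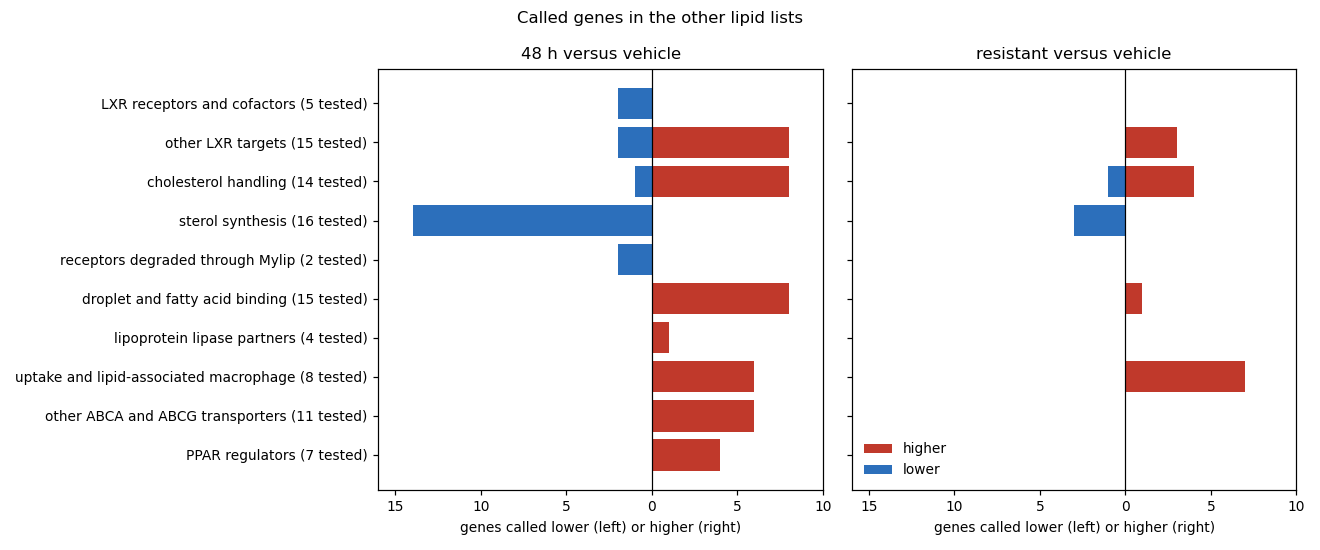
Number of genes called higher (red, right) or lower (blue, left) in each of the 10 other lipid lists, at 48 h and in resistant tumours against vehicle (limma, adjusted p under 0.05); tested genes per list stand in the labels. Sterol synthesis lies wholly on the left at 48 h, with 14 of 16 genes, and uptake genes wholly on the right in both panels.

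Macrophage markers were also higher at 24 h, at 48 h and in resistant tumours. All 19 tested macrophage markers were called higher at 48 h (25.1% of all genes), 9 at 24 h (19.7%) and 15 in resistant tumours (4.15%). Their summed signal ranged from 2304 to 3902 in vehicle tumours, 4913 to 7908 at 24 h, 35740 to 47630 at 48 h, 11500 to 16310 in tumours resistant at 40 mg/kg and 4193 to 15220 at 160 mg/kg. Csf1r, the receptor that macrophages need to survive, read 282 to 601 in vehicle tumours and 4465 to 5817 at 48 h. Not every marker was well measured in each group: Cd163 read 0.9 to 1.3 in vehicle tumours and 42.3 to 131 at 48 h, and Itgam read 0.8 to 1.2 at 8 h and 25.9 to 69.2 at 48 h. Tyrobp stands in this list and in the uptake list. Fibroblast marker sums were 2614 to 6615 in vehicle tumours and 26150 to 37060 at 48 h. Endothelial sums were 562 to 953 in vehicle tumours and 1717 to 2822 at 48 h. Neuronal markers also differed: 5 of 7 maturing neuron markers were called higher and 1 lower at 48 h. The part of these cells in the result was not tested.

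Across the 23 arrays, Pearson's r of log2 signal with the macrophage sum was 0.97 for Apoe and 0.96 for Abca1, Abcg1 and Trem2. It was 0.92 for Mylip, 0.88 for Lpl, 0.85 for Plin2, 0.78 for Abca3, 0.61 for Fabp4 and 0.50 for Nr1h3. With group means removed it was 0.94 for Apoe, 0.85 for Abca1, 0.38 for Abca3 and -0.16 for Nr1h3. Other sums gave like values: with the fibroblast sum r was 0.92 for Abca1 and Lpl, 0.89 for Abcg1, 0.87 for Plin2 and 0.81 for Abca3. It was 0.65 for Fabp4 and 0.54 for Nr1h3. For Lpl, Plin2, Abca3, Fabp4 and Nr1h3 these values were above their r with the macrophage sum. With the endothelial sum r was 0.90 for Lpl, 0.89 for Abca1 and 0.87 for Abcg1. These values describe arrays that share groups and scaling, and no p is attached. Set against the vehicle with no stated time, Apoe at 24 h departs from the trend. Its signals of 735 to 1040 overlap that group, while every macrophage sum at 24 h lies above the range of that group. Against the 4 h vehicle, at 606 and 364, every Apoe array at 24 h lay higher.

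**Figure D4:**
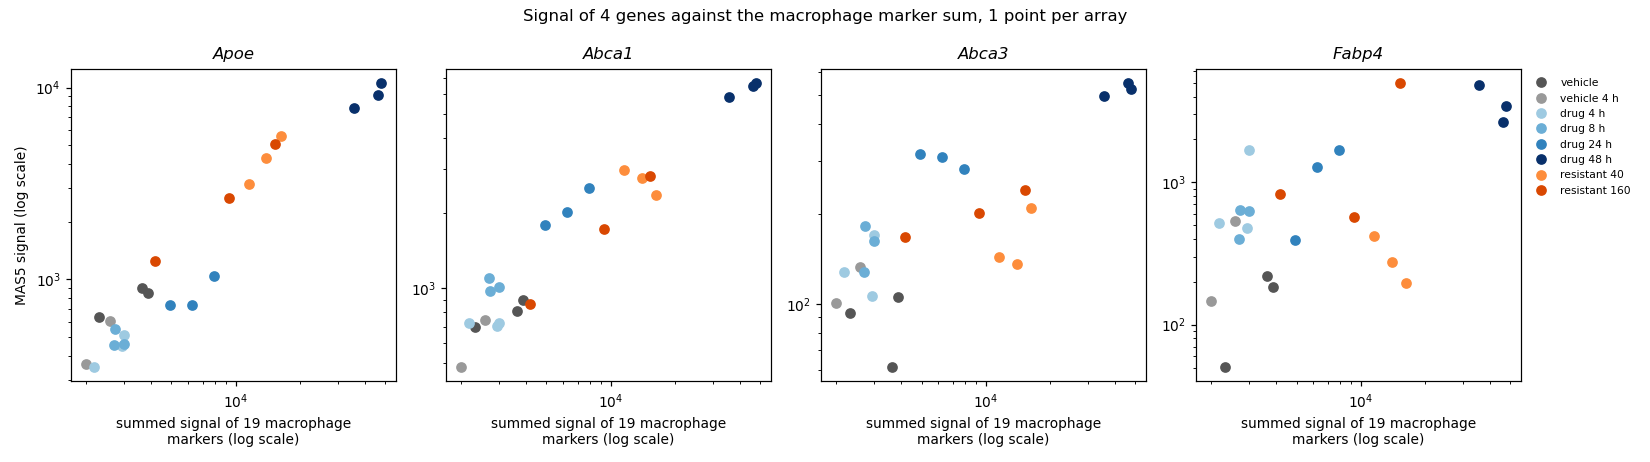
MAS5 signal of Apoe, Abca1, Abca3 and Fabp4 (vertical, log axis) against the summed signal of 19 macrophage markers (horizontal, log axis), 1 point per array, coloured by group. Apoe and Abca1 follow the sum over most arrays (r = 0.97 and 0.96), while Abca3 is higher at 24 h than in resistant tumours whose macrophage sum is larger.

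Fabp4 is also a gene of fat cells. Of 6 tested adipocyte markers 3 were called higher at 48 h (25.1% of all genes) and 0 at 24 h (19.7%) or in resistant tumours (4.15%). The sum of the 6 was mostly Car3, whose mean signal was 10760 in vehicle tumours, and it ranged from 9994 to 11620 there and 4557 to 8584 at 48 h. Without Car3, left out after its values were seen, the sum was 84.3 to 91.3 in vehicle tumours, 199.7 to 960.3 at 48 h, 88.0 to 116 in tumours resistant at 40 mg/kg and 84.2 to 859.5 at 160 mg/kg. Adipoq, which defines fat cells, read 12.5 to 23.1 in vehicle tumours and 72.0 to 568 at 48 h. Over the 23 arrays r of log2 Fabp4 signal with the sum of all 6 markers was -0.06 (0.15 with group means removed). With the sum without Car3 it was 0.88 for Fabp4 (0.77 with group means removed) and 0.40 to 0.69 for the other 9 genes, values that rest on leaving out the marker that went the other way. The part of fat tissue in the Fabp4 values was not tested.

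The probe sets most like each of the 10 genes over the 23 arrays, by Pearson's r of log2 signal, differed between them. For Apoe they were Selenop (r = 0.989), Lyz2 (0.978) and Wfdc17 (0.975), and for Trem2 they were Igf1, C1qc and Creg1 (0.968 each). For Abca1 they were Ctsb (0.981), Igf1 (0.975) and Mpeg1 (0.973), for Abcg1 Skap2 (0.982), Tmem86a and Mpeg1 (0.980 each), and for Mylip Ctsb (0.964), C3ar1 and Grn (0.962 each). Lyz2 and C1qc, a lysozyme and a complement subunit, stand in the macrophage list. Abca3 was instead most like Rufy3 (0.965), Lrrtm2 (0.957) and Ndrg4 (0.955), which are known from neurons. Its r with the maturing neuron sum was 0.85 (0.34 with group means removed), close to the 0.84 of Plin2, and the other genes ranged from 0.28 for Apoe to 0.69 for Nr1h3. With a sum of 10 granule neuron progenitor and Hedgehog medulloblastoma markers, r of Abca3 was 0.83 (0.43 with group means removed). The other genes ranged there from 0.30 for Apoe to 0.79 for Plin2. Which cells gave the Abca3 signal was not tested. Fabp4 was most like Cyp2e1 (0.872), Adipoq (0.869) and Idua (0.854), Lpl like Epas1 (0.968), Acsl5 (0.958) and Lipa (0.957), and Plin2 like Stx7 (0.976), Tpd52 (0.973) and Prkacb (0.972). Nr1h3 had the weakest likeness, with Smpd1 (0.853) first.

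Among the 45 pairs of the 10 genes r had a median of 0.81, from 0.37 for Apoe with Nr1h3 to 0.95 for Abca3 with Plin2. With group means removed the median was 0.48, from -0.32 to 0.87, and 41 of 45 pairs were positive. The points share arrays, groups and the authors' scaling.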

How the data were processed

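The series gives 1 value for each of 45101 probe sets on 23 Affymetrix arrays. Per the submitters' processing notes the authors used MAS5, and the deposited values are linear signal intensity; the 2% trimmed mean is 150 on every array. Arrays give no counting error, and their number limits the precision. Probe sets were named from the supplied annotation. The 10 genes and the lists were chosen with earlier results of these data known.

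An offset of 16 was added before taking log2. Testing was limited to the 35069 probe sets above the 40th percentile of the array on 2 arrays or more. limma 3.58.1 in R 4.3.3 fitted 1 mean for each of the 8 groups (eBayes with trend), with two-sided p-values adjusted by Benjamini-Hochberg within each of 7 comparisons at a threshold of 0.05. Each gene entered by its tested probe set of highest mean. The fit was tested on simulated data. Named genes outside the 10 were Rxra and up to 4 called genes per list, by smallest adjusted p at 48 h or in resistant tumours. For likeness they were the 3 probe sets with the highest r. Markers named beside them (Adipoq, Car3, Cd163, Csf1r, Itgam, Tyrobp) were chosen after their values were seen. Alternatives were other offsets, filters, quantile normalization, no trend, only the compared arrays, all 5 vehicle arrays, blocks, and leaving out each array. Some genes are not analysed here.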

Additional observations from a re-analysis of the deposited data

How the results depend on the processing

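The median log2 difference of the 10 genes moved by less than the spread between replicates under every alternative run in all 7 comparisons, except between the resistant doses, where leaving out each array in turn gave -0.702 to -0.083, the lower bound without replicate 3 at 160 mg/kg. Leaving out each array gave 3.02 to 3.19 at 48 h, 1.114 to 1.432 at 24 h and 1.085 to 1.425 in resistant tumours (main values 3.08, 1.25 and 1.26). At the early times it gave 0.138 to 0.501 at 4 h (main 0.29) and 0.202 to 0.613 at 8 h (main 0.41), the bounds being set by the 4 h vehicle arrays. All 10 genes were called at 48 h with each array left out.

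Among the 97 other lipid genes, the count called at 4 h was 0 (2 with all 5 vehicle arrays, 0 to 1 with an array left out). At 8 h it was 5, and 3 with an offset of 1 or without the eBayes trend, 9 with all 5 vehicle arrays, 13 with only the compared arrays and 1 to 4 with an array left out. In resistant tumours it was 19, and 31 with all 5 vehicle arrays, 7 with only the compared arrays and 12 to 31 with an array left out, the highest without replicate 1 at 160 mg/kg and the lowest without vehicle replicate 1 or 3. Between the doses it was 2, and 5 with the 60th percentile filter or quantile normalization, 0 with only the compared arrays and 3 to 10 with an array left out. The cause was not tested.

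Over all 35069 probe sets the count called was 100 at 4 h (30 to 69 with an array left out), 1139 at 8 h (449 to 734), 1682 in resistant tumours (684 to 2379) and 747 between the doses (532 to 1186). With only the compared arrays it was 187 at 4 h, 1733 at 8 h, 243 in resistant tumours and 19 between the doses. Deviations of same-numbered arrays from their group means had r of -0.10 to 0.08. With so few arrays per group these values cannot settle whether equal numbers mark animals handled together, which the labels do not say. With the replicate number as a block, the median of the 10 genes at 48 h was 3.045, the Mylip call at 8 h was lost and Pparg at 48 h (adjusted p = 0.14) and Plin3 in resistant tumours (adjusted p = 0.055) were no longer called. Plin3 in resistant tumours was also lost with either other offset, no filter, quantile normalization, no eBayes trend, only the compared arrays, and 6 of the fits that left out an array. Differences of Abcg1 at 4 h (0.04) and of Plin2 at 4 h (0.33) changed sign with a 4 h vehicle array left out (-0.30 and -0.04), so 2 control arrays limit the early times. Low signals limit Nr1h3, Trem2 and Pparg, whose values depend on the offset.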
